A study of Mus musculus with 6 samples.

Results

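The MYC-MAX-MXD-MLX network was followed in B16F10luc2 cells, a mouse melanoma line, under cyclic stretch and in static culture by sequencing of total RNA. It was defined as 10 genes by symbol: Myc, Mycn, Max, Mxd1, Mxd3, Mxd4, Mxi1, Mnt, Mga and Mlx. Of these, 9 had a row among the 14883 genes of the deposited count table and all 9 passed the filter on low counts that left 12377 genes for testing. Mycn, the neuronal MYC paralog, was not analysed here. The stretched group was 3 samples of cells on flexible-bottomed plates, elongated by 15% equally along both axes of the plane, 15 times per minute with equal stretch and relaxation phases, for 24 h. The static group was 3 samples of the same line in the same kind of plate without stretch, and all cells were in DMEM with 10% serum at 37 °C, 21% oxygen and 5% CO2. All samples came from this single line. The labels do not state whether replicates were grown as separate cultures, so each p-value reflects the variation among these 6 samples, and that variation may be technical.

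MYC, MXD, MNT and MGA proteins bind the E-box, a short DNA element, as heterodimers with the small shared partner MAX, through a basic helix-loop-helix leucine zipper. MYC-MAX dimers recruit coactivators and raise transcription of growth genes, while MXD-MAX and MNT-MAX dimers recruit the SIN3 corepressor with its histone deacetylases to the same kind of site. MLX is a MAX-like protein that pairs with the nutrient-sensing factors MondoA and ChREBP and with some of the MXD and MNT proteins. In melanoma, MYC is known as a driver of proliferation.

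Promoter sequences of 300 bases, 250 before and 50 after an annotated start, were read from RefSeq (GRCm38.p6) and matched 8 of the 9 counted genes, with 10 windows among them. Myc had no window, so its promoter was not searched. The windows were searched for the E-box, whose letters CACGTG read the same on both strands, and for the variant CACGCG on both strands. The E-box was found in windows of 4 genes, Mxd4, Mnt, Mlx and Max, and it was present in 7.15% of all 32851 windows of this length and in 11.8% of the 9892 tested genes that had a window. These 4 stretches of 40 bases are shown because they hold the element that the network's own proteins bind, in capitals, 5′ to 3′ on the gene's strand.
Mxd4 (chr5:34187907-34187946, minus strand): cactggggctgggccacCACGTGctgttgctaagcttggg
Mnt (chr11:74830784-74830823, plus strand): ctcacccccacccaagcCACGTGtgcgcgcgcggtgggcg
Mlx (chr11:101087233-101087272, plus strand): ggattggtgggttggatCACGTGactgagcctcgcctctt
Max (chr12:76962229-76962268, minus strand): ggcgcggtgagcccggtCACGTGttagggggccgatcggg
The element began 219 bases before the start in Mxd4, 123 before in Mnt, 40 before in Mlx and 3 before in Max. In Mlx it lay inside the longer palindrome TCACGTGA, looked for after the sequences were seen, which was present in 0.974% of all windows and in 2.29% of the tested genes with a window. The variant CACGCG was found in the Mga window, on its minus strand, and was present in 9.27% of all windows and in 20.3% of the tested genes with a window. That Mga window, chr2:119896978-119897277, surrounds a start inside the annotated gene span, which begins at 119872503. The Mlx stretch shown and the Mxi1 windows also lie inside their spans, which begin at 101086707 and 53310128. The Max stretch, on the minus strand, likewise lies inside its span of 76937269 to 76962323. A match describes letters and not binding.

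The promoters of Mxd4 and Mxd3 are given over the 250 bases before the start, because these related repressor genes moved in opposite directions under stretch. The E-box of Mxd4 is in capitals and the stretch of Mxd3 held neither element. Mxd4, Mnt and Max held the E-box and were lower, and Mxd1 and Mxi1 held neither element and were lower too. Mxd3 and Mga, which were higher, did not hold the E-box, and Myc, also higher, had no window. Mlx held the E-box and was not called. The part of the element in these changes was not tested.
Mxd4 (chr5:34187711-34187960, minus strand): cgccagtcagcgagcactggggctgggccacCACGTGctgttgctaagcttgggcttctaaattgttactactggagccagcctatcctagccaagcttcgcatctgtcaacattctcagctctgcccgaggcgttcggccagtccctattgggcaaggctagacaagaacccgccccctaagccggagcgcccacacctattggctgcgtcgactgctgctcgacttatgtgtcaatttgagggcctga
Mxd3 (chr13:55329732-55329981, minus strand): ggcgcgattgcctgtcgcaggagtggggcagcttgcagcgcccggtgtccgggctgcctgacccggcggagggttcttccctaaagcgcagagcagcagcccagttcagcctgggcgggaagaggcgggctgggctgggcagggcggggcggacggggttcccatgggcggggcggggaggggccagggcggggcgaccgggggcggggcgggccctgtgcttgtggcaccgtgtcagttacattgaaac

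Total estimated counts ran from 20494344 to 36351400 in the stretched libraries and from 19469286 to 30042222 in the static libraries. Levels are given as CPM, read counts normalised to a common library size with TMM factors, and changes as log2 fold changes of stretch over static with their SE. All 8 melanocyte lineage markers checked had rows, and their summed level was 20315 to 20826 CPM in the stretched libraries and 22244 to 23937 CPM in the static libraries, before TMM scaling. Of 11 markers of immune, endothelial, fibroblast and epithelial cells, 4 had rows (Cd68, Pecam1, Dcn and Pdgfra), with a summed level of 3.51 to 4.58 CPM in the stretched libraries and 2.92 to 3.40 CPM in the static libraries. Of the melanocyte markers 2 were higher and 3 lower, Pdgfra was higher, and the part of these shifts in the results was not tested. In bulk samples, fewer cells of a kind and less RNA per cell cannot be told apart.

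Under stretch, Myc rose while 4 of the 5 MXD and MNT repressor genes fell and the remaining one, Mxd3, rose. The loss of Mxd4 was the widest change in the network, at 2.79-fold. Of the 9 genes, 3 were higher (Myc, Mxd3 and Mga), 5 were lower (Max, Mxd1, Mxd4, Mxi1 and Mnt) and Mlx did not pass, in edgeR's quasi-likelihood test with p adjusted over all tested genes. Across all tested genes 50.9% passed, 24.9% higher and 25.9% lower, and their median log2 fold change was 0.0038. Of all calls 49.0% were higher, and with library size scaling 63.2% were. Levels of the groups did not overlap for 8 of the 9 network genes and for 58.5% of all tested genes. Against a null of 1.2-fold with glmTreat, 3 network genes passed (Myc, Mxd4 and Mxi1), beside 12.9% of all tested genes.

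**Figure D1:**
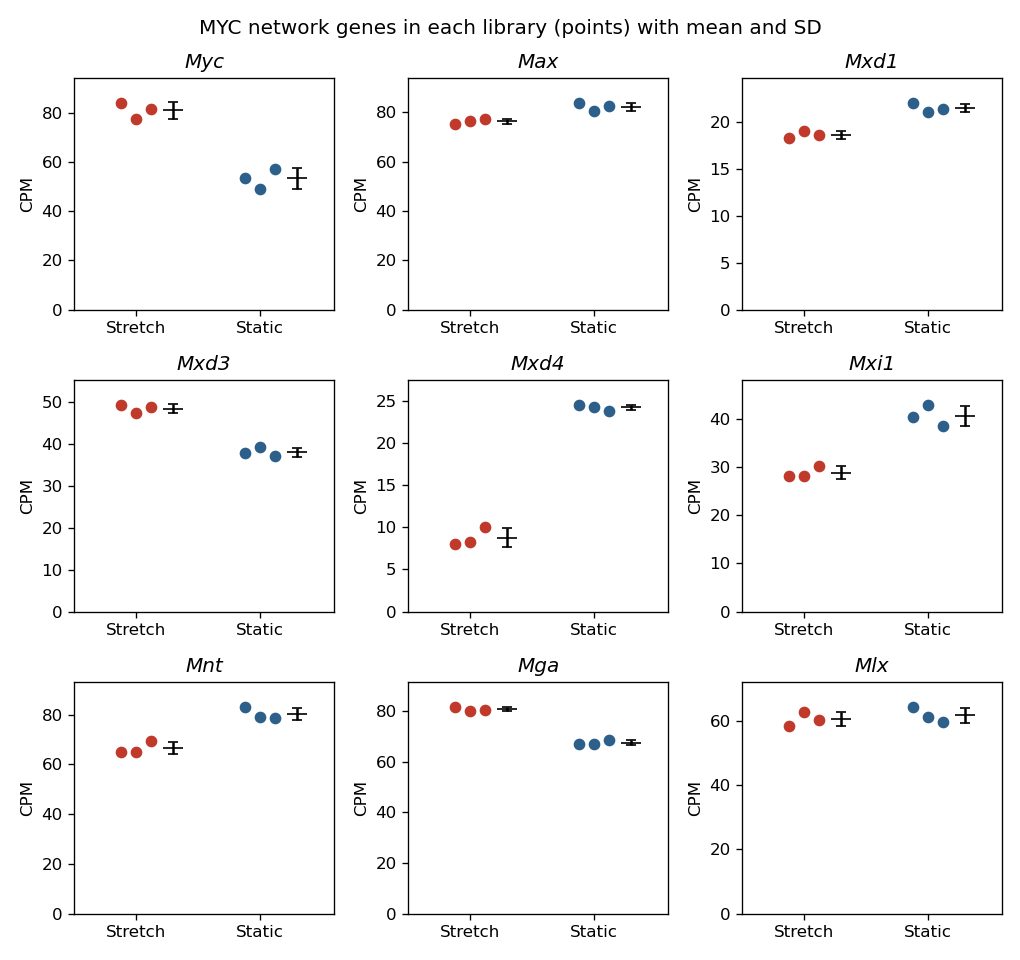
Levels of the 9 network genes in CPM (vertical axes, each starting at 0), with stretched libraries left and static libraries right. Each point is a library and the bars give mean and SD (n = 3 per group). Myc, Mxd3 and Mga were higher and Max, Mxd1, Mxd4, Mxi1 and Mnt lower in all 3 stretched libraries than in any static library, while the Mlx points overlap.

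Myc (Entrez Gene 17869; chromosome 15, 61985341 to 61990361 in GRCm38), the activating transcription factor of the network, had 83.9, 77.3 and 81.6 CPM in stretched replicates 1, 2 and 3, against 53.6, 49.1 and 57.2 CPM in static replicates 1, 2 and 3. Every stretched library lay above every static library. Its log2 fold change was 0.60 (SE 0.052, adjusted p = 2.91e-07 in edgeR's quasi-likelihood test), or 1.51-fold higher, and 485 of the 12377 tested genes had a larger gain. The static libraries differed more among themselves (SD 4.09 CPM) than those of any other network gene. They stood in the same order as for Mki67, which encodes a marker protein of cycling cells and had 834, 847 and 859 CPM in the stretched libraries and 299, 242 and 428 CPM in static replicates 1, 2 and 3. This order of static libraries was seen in 23.7% of all tested genes, and the part of proliferation in the Myc result was not tested. Without static replicate 3 the log2 fold change of Myc was 0.65, and without static replicate 2 it was 0.55.

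Max (Entrez Gene 17187; chromosome 12, 76937269 to 76962323), the obligate partner, had 75.3, 76.5 and 77.3 CPM in the stretched libraries, against 83.7, 80.6 and 82.7 CPM in the static libraries. The groups did not overlap, yet the fall was small, with a change of -0.11 on the log2 scale (SE 0.037, adjusted p = 0.0198 in edgeR's quasi-likelihood test). The call was lost without stretch replicate 1 (adjusted p = 0.0966), without stretch replicate 2 (0.0537) and without static replicate 1 (0.0886), with DESeq2 (0.0578) and with library size scaling (0.266, log2 fold change -0.05).

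Among the SIN3-recruiting repressors, Mxd4 (Entrez Gene 17122; chromosome 5, 34176580 to 34187710), an MXD gene known from differentiating cells in mice, fell most. It had 8.04, 8.29 and 10.0 CPM in stretched cells, from 299, 183 and 209 counts, against 24.5, 24.3 and 23.9 CPM in static cells, from 632, 457 and 711 counts. The static libraries were close together and the highest stretched library, replicate 3, was far below them. The log2 fold change was -1.48 (SE 0.078, 95% interval -1.65 to -1.31, adjusted p = 1.92e-09 in edgeR's quasi-likelihood test), and 27 tested genes had a lower one. Mxi1 (Entrez Gene 17859; chromosome 19, 53310128 to 53373293), also called MXD2 and known as a target of hypoxia-inducible factors in human cells, had 28.1, 28.1 and 30.3 CPM in stretched libraries, against 40.3, 42.8 and 38.5 CPM in static libraries. With no overlap, its log2 fold change was -0.49 (SE 0.054, adjusted p = 3.12e-06).

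Mnt (Entrez Gene 17428; chromosome 11, 74830806 to 74845725), the repressor present in most cell types, had 65.1, 65.0 and 69.5 CPM under stretch, against 83.0, 79.0 and 78.6 CPM in static culture. The groups were apart, with a change of -0.27 on the log2 scale (SE 0.042, adjusted p = 7.53e-05 in edgeR's quasi-likelihood test). With an offset for GC content and length it was -0.15 (adjusted p = 0.0091). Mxd1 (Entrez Gene 17119; chromosome 6, 86647044 to 86669234), the founding MXD gene, known from differentiating cells, had 18.2, 19.02 and 18.6 CPM in stretched libraries, against 22.0, 21.1 and 21.4 CPM in static libraries. This was a separate but small step, with a change of -0.21 on the log2 scale (SE 0.057, adjusted p = 0.00614).

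Mxd3 (Entrez Gene 17121; chromosome 13, 55325170 to 55329900) is the MXD gene known in mice for expression in proliferating cells, in S phase. Its level was 49.3, 47.4 and 48.9 CPM in stretched libraries, against 37.9, 39.3 and 37.2 CPM in static libraries. All stretched libraries were above all static ones, with a log2 fold change of 0.35 (SE 0.044, 95% interval 0.26 to 0.45, adjusted p = 1.12e-05 in edgeR's quasi-likelihood test). Unlike Myc, Mxd3 was highest in static replicate 2. The annotated span of Mxd3 shares 103 bases with that of Prelid1, whose level was 386 CPM in stretched cells and 424 CPM in static cells. Mlx likewise shares 67 bases with Psmc3ip, Mxd1 and Mxi1 overlap lncRNA genes, and Mga shares 638 bases with a pseudogene, none of these 3 tested. The sources used here do not give whether counting used strand, so reads from shared bases cannot be told apart.

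Mga (Entrez Gene 29808; chromosome 2, 119872503 to 119970129) encodes a MAX partner that also carries a T-box domain and sits in PRC1.6, a repressive Polycomb complex. It had 81.6, 80.2 and 80.3 CPM in the stretched libraries, against 67.1, 66.9 and 68.7 CPM in the static libraries, which were clearly apart. Its log2 fold change was 0.26 (SE 0.037, adjusted p = 4.14e-05 in edgeR's quasi-likelihood test). With an offset per library for GC content and transcript length, the log2 fold change was 0.05 and the call was lost (adjusted p = 0.301). The longest Mga transcript has 13931 bases and a GC content of 42.2%, and 0.586% of tested genes have a longer one. Across the 12281 tested genes with both values, which share the same libraries, the log2 fold change had a Spearman rho of -0.29 with GC content and 0.07 with length.

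Mlx (Entrez Gene 21428; chromosome 11, 101086707 to 101092207) had 58.4, 62.7 and 60.2 CPM in stretched libraries, against 64.2, 61.1 and 59.6 CPM in static libraries. The groups overlapped and the log2 fold change was -0.03 (95% interval -0.12 to 0.06, adjusted p = 0.583 in edgeR's quasi-likelihood test). Mlxip, which encodes the MLX partner MondoA and was not among the 10 genes, had 76.1 ± 2.29 CPM under stretch and 71.5 ± 2.89 CPM in static culture (SD, n = 3 each), with a change of 0.09 on the log2 scale (SE 0.042, adjusted p = 0.0890 in the same edgeR test). It passed without static replicate 3 (adjusted p = 0.0266), with scaling by library size (0.0136) and with the offset (0.0208). Mlxipl, the ChREBP gene, had 3, 1 and 0 counts in the stretched libraries and 5, 2 and 3 counts in the static libraries and was below the filter. Mycl, another MYC paralog, was not analysed here.

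**Figure D2:**
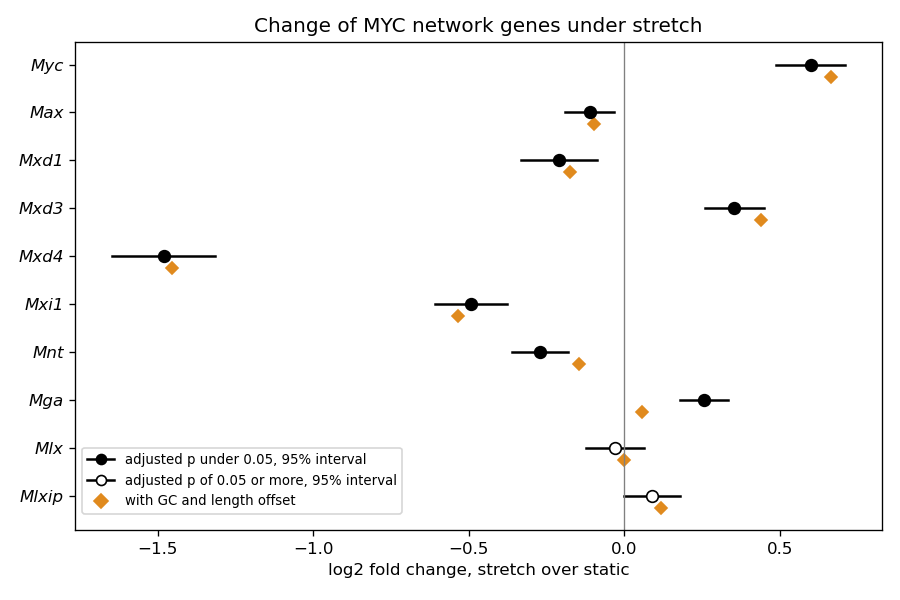
Log2 fold change of stretch over static (horizontal axis) for the 9 network genes and Mlxip, as circles with 95% intervals, filled where the adjusted p was under 0.05. Diamonds show the value with an offset for GC content and length. The diamond of Mga lies near 0, at 0.05 against 0.26, while those of Myc, Mxd3, Mxd4 and Mxi1 lie closer to their circles.

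Levels were compared between genes per kilobase of the longest annotated GENCODE M21 transcript, which need not be the isoform these cells use. In stretched cells the order from high to low was Max (39.3 ± 0.521 CPM per kilobase, SD, n = 3), Myc (34.6 ± 1.43), Mlx (30.8 ± 1.11), Mxd3 (27.9 ± 0.600), Mnt (14.5 ± 0.556), Mga (5.79 ± 0.055), Mxi1 (5.72 ± 0.257), Mxd1 (3.99 ± 0.085) and Mxd4 (1.90 ± 0.234). Mga and Mxi1 differed by less than their spread there. In static cells the order was Max (42.4 ± 0.830 CPM per kilobase), Mlx (31.4 ± 1.21), Myc (22.8 ± 1.75), Mxd3 (21.9 ± 0.632), Mnt (17.5 ± 0.533), Mxi1 (8.06 ± 0.428), Mxd4 (5.23 ± 0.071), Mga (4.85 ± 0.072) and Mxd1 (4.602 ± 0.098). Myc and Mxd3 differed by less than their spread in static cells. Mxd4 thus stood last of the 9 genes under stretch, and above Mga and Mxd1 in static culture. With the median length of the coding transcripts in place of the longest, Myc came before Max in stretched cells, at 45.2 against 39.6 CPM per kilobase, and Mnt came before Myc in static cells, at 30.8 against 29.7. Mxd3 then stood above Mlx in stretched cells, at 36.6 against 33.9. The value of Mxi1 moved most with this choice, to 19.3 in stretched cells and 27.2 in static cells, so that Mxi1 and Mga (6.07 in stretched cells) were no longer close. Mga then stood below Mxd1 in both groups, and Mxd4 was still last in stretched cells and above Mxd1 and Mga in static cells.

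The 7 genes whose proteins compete for MAX (Myc, Mxd1, Mxd3, Mxd4, Mxi1, Mnt and Mga) were summed per kilobase in each library, as a description without a test. Myc made up 37.6%, 36.1% and 36.3% of this sum in the stretched libraries, against 26.8%, 25.03% and 28.7% in the static libraries. Shares of Myc were thus higher in every stretched library, while the sum of the 5 MXD and MNT genes was lower, at 54.0 ± 1.31 CPM per kilobase in stretched cells and 57.2 ± 1.21 in static cells (SD, n = 3 each). The nearest libraries were stretched replicate 3, at 55.4, and static replicate 3, at 55.8. The small gap depends on the TMM factors, 1.02 in stretched libraries and 0.966 to 0.993 in static libraries. It was not taken with library size scaling. This sum of the 5 genes holds the gain of Mxd3 together with the losses of the other 4. Within that family the level of Mxd3 was 16.3, 15.2 and 13.0 times that of Mxd4 in the stretched libraries and 4.11, 4.30 and 4.14 times in the static libraries. With the median coding length, the mean share of Myc was 31.5% in stretched cells and 21.3% in static cells, and the sum of the repressor genes was 92.2 ± 2.57 CPM per kilobase in stretched cells and 104.8 ± 2.52 in static cells. Messenger RNA levels say nothing of how much of each protein was present or bound to MAX.

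**Figure D3:**
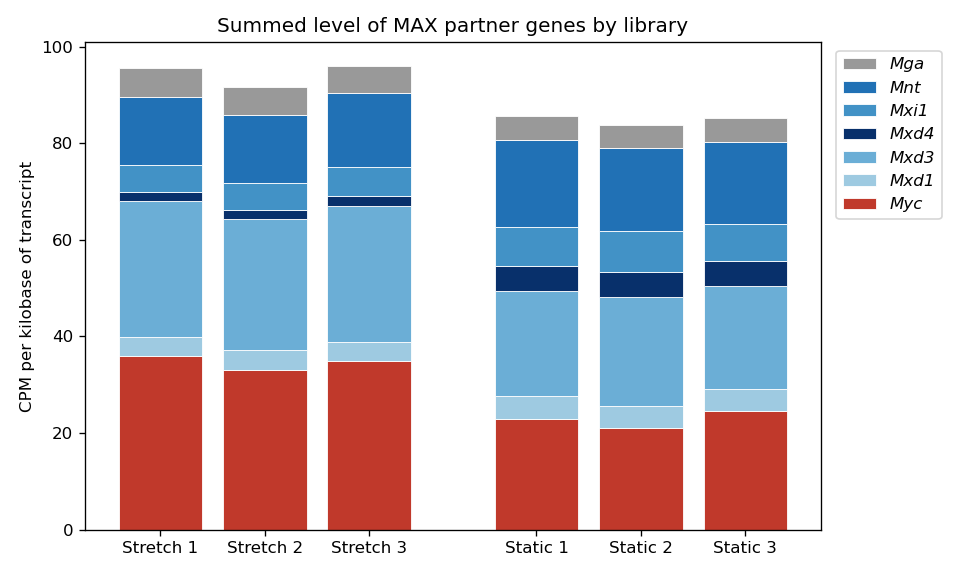
Stacked levels of the 7 MAX partner genes in CPM per kilobase of the longest transcript (vertical axis from 0), with the 3 stretched libraries left and the 3 static libraries right. The Myc block spans 33.1 to 35.9 in stretched and 21.0 to 24.5 in static libraries, and the Mxd4 block 1.74 to 2.17 in stretched and 5.16 to 5.29 in static libraries.

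For the genes that work with the network, counts of called genes are read beside the 24.9% higher and 25.9% lower of all tested genes. With library size scaling those shares were 33.3% and 19.4%, and the medians of the coactivator, corepressor, PRC1.6 and turnover lists were 0.12 to 0.16, beside 0.06 over all tested genes. Among 12 MYC coactivator genes, 5 were higher and 1 lower (median log2 fold change 0.10). Actl6a, a subunit shared by the TIP60 and BAF complexes, rose to 129 ± 2.41 CPM in stretched cells, against 111 ± 2.88 CPM in static cells (SD, n = 3 each), and Wdr5, which links MYC to chromatin, had a log2 fold change of 0.16. With library size scaling 8 coactivator genes were higher. The 1 lower call was lost with that scaling, with the GC and length offset, and on leaving out any library other than static replicate 2.

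Of 11 genes of the SIN3-HDAC corepressor, 5 were higher and 1 lower (median 0.10), and 3 were higher without stretch replicate 2 and with the offset. Arid4b, a SIN3-associated protein gene, rose to 37.4 ± 0.956 CPM in stretched cells, against 25.6 ± 4.03 CPM in static cells (SD, n = 3 each), and Brms1l, another subunit gene, had a log2 fold change of 0.26. Suds3, a subunit that holds the complex together, fell by 0.16 on the log2 scale. Sin3a and Sin3b themselves missed the threshold (log2 fold changes 0.09 and -0.0062, adjusted p = 0.0687 and 0.903). Of 9 PRC1.6 partners of MGA, 3 were higher and 1 lower (median 0.08), and 6 were higher with library size scaling. The offset brought that list median to 0.03, and it was 0.05 without stretch replicate 3 and 0.03 without static replicate 3. Tfdp1, the partner of E2F proteins, and Cbx3, a heterochromatin protein gene, had log2 fold changes of 0.32 and 0.26, and Ring1, a Polycomb ubiquitin ligase gene, one of -0.25. With the offset the value of Cbx3 was 0.13, still past the threshold (adjusted p = 0.00918), and that of Ring1 was -0.15 and not past it (0.0531). Ring1 passed with the offset and the replicate block together (0.0431), where 2 PRC1.6 genes were lower.

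Among 13 genes acting on the turnover of MYC protein, 4 were higher and 3 lower (median 0.06, or 0.04 without static replicate 2 and 0.03 with the GC and length offset). Cip2a, an inhibitor of the phosphatase PP2A that shields MYC from degradation, rose to 170 ± 2.28 CPM in stretched cells, against 104 ± 5.66 CPM in static cells (SD, n = 3 each), a log2 fold change of 0.71 (adjusted p = 6.2e-09 in edgeR's quasi-likelihood test). Aurka, a mitotic kinase that stabilizes N-MYC, rose to 124 ± 2.75 CPM in stretched cells, against 94.3 ± 2.19 CPM in static cells. Both are also known as genes of proliferating cells. Skp2, a ubiquitin ligase subunit gene that acts on MYC, had a log2 fold change of 0.35. Fbxw7, the substrate receptor of the main MYC ubiquitin ligase, missed the threshold at a log2 fold change of 0.10 (adjusted p = 0.140). Trpc4ap, another ligase adaptor gene, and Gsk3b, the kinase that marks MYC for FBXW7, had log2 fold changes of -0.22 and -0.14. The Gsk3b call was lost without any of the stretch replicates or static replicate 1 (adjusted p = 0.0512 to 0.0807) and with library size scaling (0.196), and with the offset its value was -0.23. The count of lower genes here was 1 without stretch replicate 1, stretch replicate 2 or static replicate 1, and with library size scaling 7 were higher and 1 lower.

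Genes commonly listed as MYC-induced were mostly higher: 19 of 27 rose, 1 fell, and the list median was 0.22 on the log2 scale, beside 24.9% higher and a median of 0.0038 over all tested genes. That median was 0.17 without static replicate 2, 0.24 without stretch replicate 1 and 0.19 with the GC and length offset. With library size scaling it was 0.28 and 24 genes were higher, beside a median of 0.06 and 33.3% higher over all tested genes. Mir17hg, the host transcript of the miR-17-92 cluster, had 12.7 ± 0.315 CPM in stretched cells and 5.13 ± 0.855 CPM in static cells (SD, n = 3 each), a log2 fold change of 1.28. Nolc1, a nucleolar phosphoprotein gene, rose to 248 ± 2.88 CPM in stretched cells, against 183 ± 5.88 CPM in static cells. The fall of Tfrc, the transferrin receptor gene, was at the threshold (log2 fold change -0.11, adjusted p = 0.0456 in edgeR's quasi-likelihood test). It was lost without any library other than static replicate 3 (adjusted p = 0.0742 to 0.175), with the replicate number as a block (0.0771) and with library size scaling (0.300). The call was also lost with upper quartile scaling, after thinning and with glmTreat. Odc1 and Cdk4, textbook MYC targets, missed the threshold (log2 fold changes 0.05 and -0.01, adjusted p = 0.370 and 0.804). Against 1.2-fold, 5 genes of this list passed as higher, beside 5.49% of all tested genes.

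Of 10 tested genes commonly listed as MYC-repressed, 5 were lower and none higher (median -0.08). Gadd45a, a stress-response gene, fell to 7.21 ± 0.305 CPM in stretched cells, against 18.1 ± 1.07 CPM in static cells (SD, n = 3 each), and Cdkn1a, which encodes p21, a brake on cyclin-dependent kinases, was lower, at 129 ± 1.21 CPM in stretched cells, against 220 ± 18.6 CPM in static cells. Both are also p53 targets. The median of the repressed list ran from -0.38 with a filter of 5 CPM in 3 libraries to -0.01 after thinning to the smallest library. That filter drops low genes of the list, so its median covers fewer genes. Among them, Cdkn1c had 3.74 CPM in stretched and 3.69 CPM in static cells, and Ndrg2 had 0.602 and 0.564 CPM. On leaving out each library, the list median ran from -0.23 without static replicate 2 to -0.02 without static replicate 3. It was -0.13 without stretch replicate 2 and -0.05 without static replicate 1. Without static replicate 3, with library size scaling and with the offset, 2 genes of the list were higher. At an unadjusted p under 0.05, 2 of its genes (Gadd45b and Col1a2) were higher, and DESeq2 called 0 higher. Genes with MLX dimers as known regulators went both ways, 2 higher and 3 lower of 7 tested, with a median of -0.01 that had no stable sign. It was 0.05 with library size scaling and without static replicate 2, 0.02 without stretch replicate 2 and -0.05 without static replicate 3. Txnip, the best known MondoA target, had 49.0 ± 2.01 CPM in stretched cells and 49.6 ± 3.96 CPM in static cells and did not pass (adjusted p = 0.936). Klf10, a zinc finger factor gene, and Gpd1, a glycerol phosphate enzyme gene, had log2 fold changes of 0.55 and 0.36. Scd1 and Fasn, lipid synthesis genes also driven by SREBP, had log2 fold changes of -0.71 and -0.57.

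**Figure D4:**
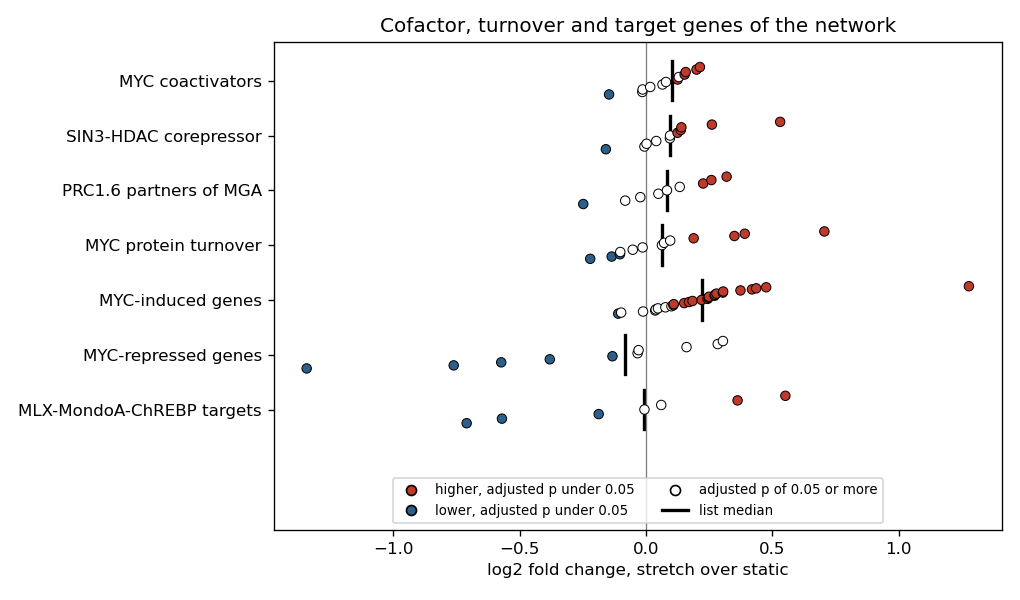
Log2 fold change of stretch over static (horizontal axis) for each tested gene of 7 lists of cofactors, turnover factors and targets. Points are genes, filled red where higher and blue where lower at an adjusted p under 0.05, and black bars are list medians. The medians run from -0.08 for MYC-repressed genes to 0.22 for MYC-induced genes.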

How the data were processed

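RNA of 3 stretched and 3 static B16F10luc2 samples was extracted with Trizol and RNeasy columns and sequenced by BGI, per the labels' protocols. The deposited values are gene-level estimated counts in whole numbers, without scaling, and each listed gene has at least 10 counts over the 6 libraries. Per the submitters' processing notes, Salmon 1.4.0 was used, with mm10 as well as GRCm38 given as builds. Such estimates divide ambiguous reads among related transcripts. The index, the rounding, strand and any RNA selection are not stated in the sources. Entrez Gene numbers were matched to RefSeq symbols of GRCm38.p6 (14875 of 14883).

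Genes were filtered with filterByExpr (minimum count 10), scaled by TMM (factors 0.966 to 1.02) and tested in edgeR 4.0.16 (R 4.3.3) with a quasi-likelihood model of the group alone, 4 residual degrees of freedom, two-sided, with Benjamini-Hochberg adjustment over 12377 genes and a threshold of 0.05. An exact test of 3 against 3 samples cannot go below p = 0.1, so sums and ratios per library carry no test. The members and gene lists were chosen with earlier results of these data known. Named genes were the 10 members, Mycl, Mlxip and Mlxipl and, per list, the 2 called genes of lowest p in each direction. Of these, 1 is not reported here. Sin3a, Sin3b, Skp2, Fbxw7, Odc1, Cdk4, Txnip, Gadd45b, Col1a2, Prelid1, Psmc3ip and Mki67 were added after their values were seen. GC content and length came from the longest GENCODE M21 transcript (99.2% of tested genes), and the median coding length was an alternative chosen after seeing the data. Alternatives were RLE, upper quartile and library size scaling, no filter, a filter of 5 CPM in 3 libraries, DESeq2 1.42.0, limma-voom (limma 3.58.1), glmTreat, a replicate block, thinning, a spline offset (5 degrees of freedom) on GC content and length, and each library left out. The procedure was tested on simulated data.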

Additional observations from a re-analysis of the deposited data

How the results depend on the processing

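The counts of called genes stayed within 1.5 times the main count in every alternative other than glmTreat against 1.2-fold, which called 1592 genes in place of 6298 (679 higher and 913 lower), 3 network genes in place of 8 (1 higher and 2 lower), and 16 genes of the 7 lists in place of 53 (10 higher and 6 lower). Leaving out each library in turn gave 5153 to 6331 called genes, 7 or 8 network genes and 44 to 56 list genes. Library size scaling moved the median log2 fold change of all genes to 0.06 and the share of higher calls to 63.2%, against 49.0% with TMM, and gave 57 higher list genes in place of 38. Myc, Mxd4 and Mxi1 passed in every alternative, with log2 fold changes of 0.55 to 0.67, -1.57 to -1.40 and -0.53 to -0.43. Mxd1, Mxd3 and Mnt lost the call with glmTreat alone (adjusted p = 1.0, 0.0575 and 0.669), and Mga also with the GC and length offset, with or without the block. Max also lost it with the block and offset together (0.064). The log2 fold change of Mlx, not called, was 0.030 with library size scaling, and -0.061 to 0.00097 on leaving out each library in turn, above 0 without static replicate 1. The cause of these shifts was not tested. Same-numbered libraries did not deviate together (correlations of -0.012, 0.0050 and -0.077). With 3 libraries per group, this cannot show whether they were grown or handled as pairs. With the replicate number as a block, 5967 genes and 8 network genes were called. Per-kilobase levels rest on the chosen transcript length. In stretched libraries Mxd4 had the fewest counts of the network genes, 183 to 299, and after thinning its log2 fold change was -1.46.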
